A study of Mus musculus with 15 samples.

Results

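The Lpin1 locus was read here as 618 HindIII sites of mouse chromosome 12 that lie within about 1 Mb of the Lpin1 viewpoint of a circular chromosome conformation capture (4C-seq) experiment. They are all the HindIII sites from 15600001 to 17600000 bp (build mm9) except those within 10 kb of the bait at 16597111 bp, out of 37895 sites on the chromosome and 823355 in the genome. Of the 618 sites, 339 lie at lower coordinates than the bait and 279 at higher coordinates, and 8 sites inside the zone were left out. The study compared a B lymphocyte cell line, with 1 library per bait, and 3T3-L1 cells, a mouse fibroblast line, at days 0, 1, 2 and 6 of adipogenesis, with 2 libraries per day and bait. Each day and bait is 1 deposited sample whose 2 libraries are its replicate count files, so n here counts libraries and not samples. On day 0, confluent 3T3-L1 cells received 1 µM dexamethasone, 0.5 mM 3-isobutyl-1-methylxanthine, 1 µg/ml insulin and fetal calf serum. From day 2 the labels name insulin and serum, and afterwards serum alone. Day 0 cells are labelled preadipocytes and day 6 cells mature adipocytes. Each cell type is 1 established line, the labels name no B cell treatment of its own, and they do not say whether replicate libraries came from separate cultures, so p-values measure only the spread between these libraries.

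Lpin1 encodes lipin 1, a phosphatidate phosphatase that turns phosphatidic acid into diacylglycerol on the way to triglyceride, and that also acts in the nucleus as a coactivator of lipid metabolism genes. Fat tissue of mice without working lipin 1 stays poorly developed, and the gene is expressed in adipocytes. In 4C-seq, chromatin is fixed, cut at HindIII sites and ligated, so that the reads at a site count how often it was joined to the bait. Contacts are most frequent beside any bait and thin out with distance, and what differs between cell types is how the reads are spread over the neighbourhood. For that reason each value for the Lpin1 bait is given as a share of the reads on the 618 sites of that library.

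The sites are defined by the HindIII recognition sequence AAGCTT. In the RefSeq gene order of GRCm38.p6, another build, Lpin1 follows Nbas, Lratd1 and Trib2, where Trib2 encodes a Tribbles pseudokinase. The 11 genes next above it run from Ntsr2, a neurotensin receptor, through E2f6, a transcriptional repressor, to Odc1, the ornithine decarboxylase of polyamine synthesis. Genes were not placed in the windows below, because no annotation of mm9 was used. The 250 bases before the start of each of these 15 genes were searched for AAGCTT, which reads the same on both strands. The motif was found in 1 of their 16 promoter entries, that of Kcnf1, which encodes a potassium channel subunit, beginning 151 bases before the start. Among all 32851 mouse promoter entries, 6.22% held it in the same window. GATC, the recognition sequence of DpnII, the second enzyme of the protocol, was in 4 of the 16 entries, and in 41.9% of all entries. The promoters of Lpin1, the baited gene, and of Kcnf1, the only neighbour whose promoter holds a site of the kind counted here, are given 5′ to 3′ on the gene's own strand, the minus strand of chromosome 12 for both genes (RefSeq, GRCm38.p6). Capitals mark the HindIII site.
Lpin1: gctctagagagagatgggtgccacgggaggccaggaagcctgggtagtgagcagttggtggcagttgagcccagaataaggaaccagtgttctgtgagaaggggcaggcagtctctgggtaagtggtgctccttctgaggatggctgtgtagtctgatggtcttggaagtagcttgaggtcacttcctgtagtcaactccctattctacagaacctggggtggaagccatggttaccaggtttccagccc
Kcnf1: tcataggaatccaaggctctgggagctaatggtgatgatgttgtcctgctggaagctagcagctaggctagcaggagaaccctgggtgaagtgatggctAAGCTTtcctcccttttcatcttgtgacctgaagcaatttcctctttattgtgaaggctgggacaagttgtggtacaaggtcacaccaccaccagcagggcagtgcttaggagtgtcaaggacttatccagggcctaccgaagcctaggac
The Lpin1 promoter entry holds neither motif. A match describes these letters only, and neither promoter was assigned a read count.

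The 9 Lpin1 libraries held 867255 to 3002206 reads, of which 241461 to 1224077 lay on the 618 sites. The site at 16597111 to 16597116 bp had the most reads in 9 of 9 libraries and was taken as the bait. At least 1 read was found at 96.3% of the sites in B cells, against 77.0% to 91.6% in the 8 3T3-L1 libraries. The lowest captured shares were those of the 2 day 6 libraries, 85.4% and 77.0%, and day 6 replicate 2 was also the shallowest. Across libraries 443 sites had a read in all 9, 15 had none in any, 16 had reads in B cells only, and 1 had reads in all 8 3T3-L1 libraries and none in B cells. The exact binomial intervals given for B cell shares of reads treat every read as separate. PCR copies are not separate molecules, so these intervals are narrower than the counting error of molecules. All intervals come from 1 B cell library per bait and leave out the spread between libraries.

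In both cell lines the reads formed a peak beside the bait. In 3T3-L1 cells a long, uneven shoulder lay on the low-coordinate side, while in B cells the reach of the sides was more alike, as given below. The 5 windows of 50 kb with the highest mean share in 3T3-L1 cells all had their centres within 278 kb of the bait. The window from 16.55 to 16.60 Mb held 13.3% ± 2.07, that from 16.65 to 16.70 Mb 12.9% ± 1.26 and that from 16.60 to 16.65 Mb 10.4% ± 2.43 of the reads (SD, n = 8). The window from 16.70 to 16.75 Mb held 6.41% ± 0.800 and that from 16.85 to 16.90 Mb, centred 278 kb from the bait, 3.23% ± 0.539 (SD, n = 8). Of these 5 windows, 4 lay at higher coordinates than the bait. In B cells the leading window was also the one from 16.55 to 16.60 Mb, with 16.4% of the reads, followed by those from 16.65, 16.60, 16.70 and 16.90 Mb with 8.64%, 6.59%, 5.12% and 4.24%. The window from 16.50 to 16.55 Mb, next to the peak on its low side, held 2.27% in B cells and 1.08% ± 0.210 in 3T3-L1 cells (SD, n = 8), so that the low flank of the peak was steep in both lines.

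**Figure D1:**
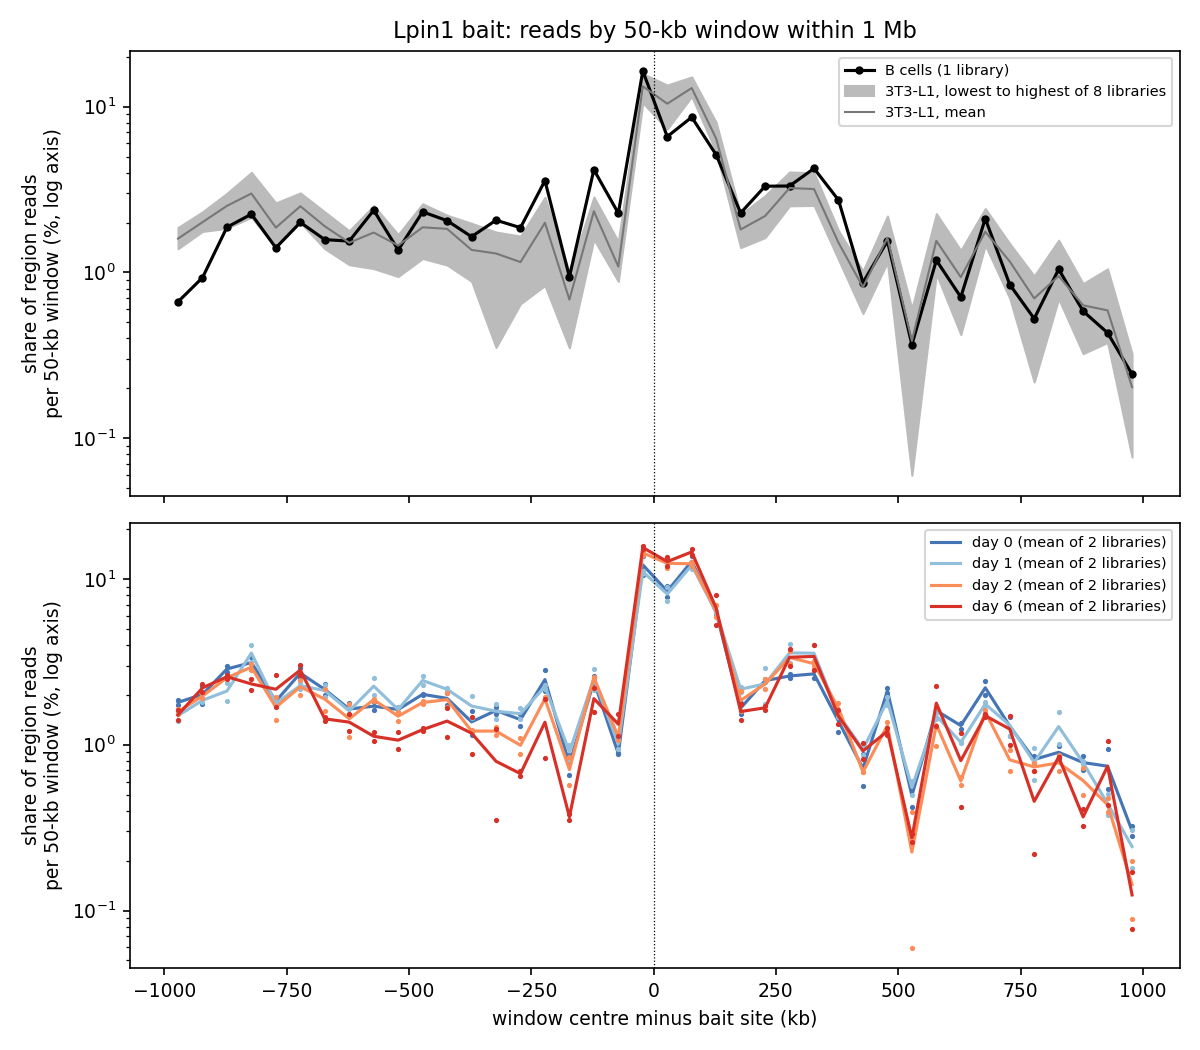
Share of the reads on the 618 sites in each 50-kb window (%, log axis) against the distance of the window centre from the bait site (kb). The upper plot shows B cells (1 library, black) and 3T3-L1 cells (grey line, mean of 8 libraries, with the band from the lowest to the highest), and the lower plot shows the 3T3-L1 libraries as dots with a line through the mean of each day (n = 2). The B cell line leaves the 3T3-L1 band upwards just below the bait and in 4 windows between 16.75 and 17.00 Mb above it, and downwards at the lowest coordinates and just above the bait.

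The sides of the bait were mirrored against each other per site, dividing the reads per site on the low side by those at the same distance on the high side. Between 50 and 100 kb the low side had 0.500 times the reads per site of the high side in B cells, against 0.141 ± 0.0302 times in 3T3-L1 cells (SD, n = 8). Between 100 and 200 kb the ratio was 0.388 in B cells and 0.193 ± 0.0530 in 3T3-L1 cells (SD, n = 8). The high side was thus the denser one in 9 of 9 libraries in every bin from 50 to 400 kb. Beyond 600 kb the order was the other way round, again in 9 of 9 libraries in every bin. In the outermost bin, 900 to 1003 kb away, the low side had 1.72 times the reads per site of the high side in B cells and 3.30 ± 0.913 times in 3T3-L1 cells (SD, n = 8). In the bins of 50 to 100 kb, 100 to 200 kb and 900 to 1003 kb the B cell ratio lay nearer to 1 than that of any 3T3-L1 library, but not in all bins. Between 10 and 50 kb it was 1.69 in B cells and 0.861 to 1.62 in 3T3-L1 cells. Between 500 and 600 kb it was 1.74 in B cells and 0.648 to 1.52 in 3T3-L1 cells. In these bins B cells were farther from 1 than the highest 3T3-L1 library. The ratios include single sites, described below, that were nearly empty in 3T3-L1 cells, and such sites lie on both sides. That at 16611744 bp held 1.77% of the B cell reads, of 4.94% in the high bin of 10 to 50 kb. Their part in the ratios was not tested.

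In B cells a larger share of the reads lay on the low side than in 3T3-L1 cells. The low side held 53.3% of the reads in B cells (exact 95% interval 53.2% to 53.4%). In 3T3-L1 cells it held 47.8% and 49.2% on day 0, 46.5% and 49.2% on day 1, 47.5% and 47.2% on day 2 and 44.9% and 43.7% on day 6. The B cell library lay above all 8 3T3-L1 libraries, by 6.30 percentage points over their mean, and the two-sided exact permutation p was 0.11, the smallest that 1 library against 8 allows (0.467 after Benjamini-Hochberg adjustment over the 21 permutation tests made). On the low side 50% of the reads lay within 237 kb of the bait in B cells, against 360 to 445 kb in the 8 3T3-L1 libraries. On the high side that distance was 209 kb in B cells and 106 to 156 kb in 3T3-L1 cells. The 2 distances differed by much less in B cells than in any 3T3-L1 library. With captured sites, those with at least 1 read, counted instead, the low-side difference had the other sign, at -0.454 percentage points. That measure has little room to move, because most sites were captured in every library: the low side holds 54.9% of all 618 sites, and it held 54.8% of the captured sites in B cells and 54.6% to 55.9% in the 3T3-L1 libraries.

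The share far from the bait was also low in B cells. Sites 500 kb to 1 Mb away held 24.1% of the reads in B cells (exact 95% interval 23.9% to 24.2%). They held 29.9% and 33.7% on day 0, 29.2% and 31.4% on day 1, 26.3% and 27.4% on day 2, and 27.1% and 26.1% on day 6. B cells lay below all 8 libraries, with a mean difference of -4.83 percentage points (exact permutation p = 0.222, adjusted 0.467). With captured sites counted instead, this difference too had the other sign, at 0.908 percentage points. Sites within 100 kb held 33.5% in B cells (exact 95% interval 33.4% to 33.6%), which lies among the 3T3-L1 libraries, whose mean was 37.3% ± 5.36 (SD, n = 8; exact permutation p = 0.778, adjusted 0.860).

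**Figure D2:**
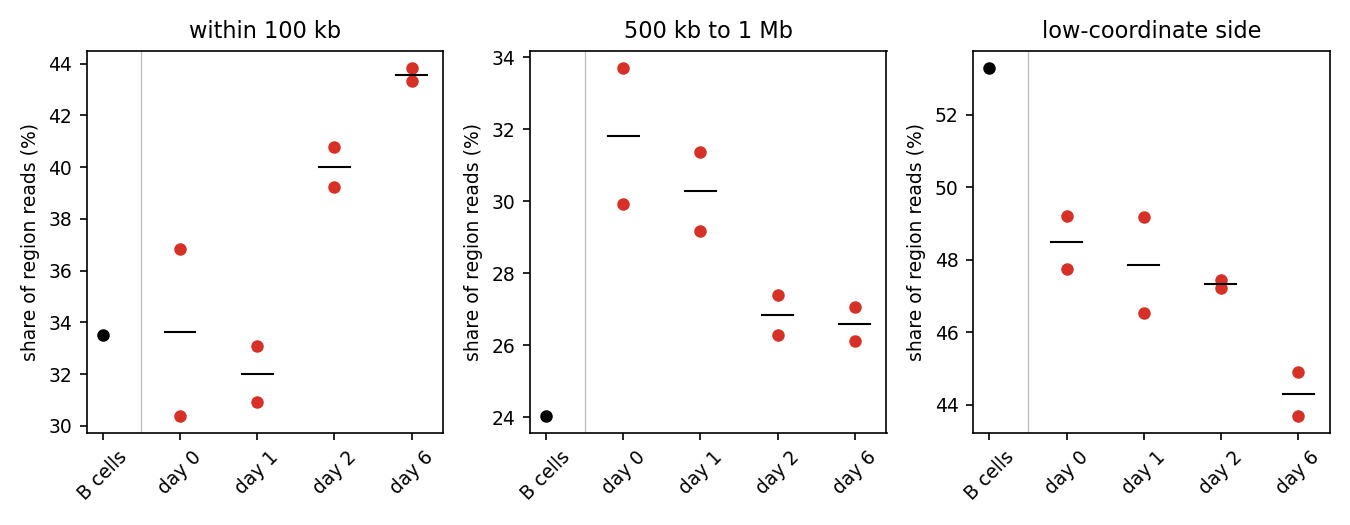
Share of the reads on the 618 sites (%) that lay within 100 kb of the bait, 500 kb to 1 Mb from it, and on the low-coordinate side, in B cells (black, 1 library) and in 3T3-L1 cells by day (red, 2 libraries each, bar at their mean); the vertical axes do not start at 0. B cells are the lowest for 500 kb to 1 Mb and the highest for the low side, and both day 2 and both day 6 libraries exceed the others within 100 kb.

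Between B cells and 3T3-L1 cells 7 of the 40 windows passed edgeR's quasi-likelihood test at an adjusted p under 0.05. The background over the 2245 tested windows of chromosome 12 was 0.356%. Every background given here includes the 40 windows themselves. Among the 2205 tested windows outside the region 1 passed in this comparison. Of the 7, 3 were higher and 4 lower in B cells, against a background of 0.178% in each direction. The lower windows sat just above the bait and at the low end of the region, and the higher ones just below the bait. Of all 40 windows, 22 had a positive and 18 a negative log2 difference, with a median of 0.04, against a median of 0.65 over all tested windows, most of which are far from the bait and sparse. The B cell library lay above all 8 3T3-L1 libraries in 10 windows and below all of them in 6, against 16.7% and 2.05% of all tested windows.

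Just above the bait, the window from 16.60 to 16.65 Mb held 6.59% of the reads in B cells (exact 95% interval 6.53% to 6.65%). In 3T3-L1 cells it held 9.06% and 7.79% on day 0, 8.89% and 7.32% on day 1, 13.2% and 11.7% on day 2, and 13.5% and 11.9% on day 6. B cells were below all 8 libraries, by a log2 difference of -0.63 ± 0.12 (SE; quasi-likelihood adjusted p = 7.81e-05). Against the day 0 libraries alone the difference was -0.35 and did not pass. The next window, from 16.65 to 16.70 Mb, held 8.64% in B cells, against 11.5% to 15.1% in the 8 3T3-L1 libraries with a mean of 12.9% ± 1.26 (SD, n = 8), and was lower by a log2 difference of -0.58 ± 0.10 (SE; quasi-likelihood adjusted p = 6.17e-05).

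Just below the bait B cells were higher. The window from 16.50 to 16.55 Mb held 2.27% in B cells, against 0.887% and 0.883% on day 0, 1.07% and 0.946% on day 1, 1.16% and 1.06% on day 2, and 1.53% and 1.13% on day 6 in 3T3-L1 cells. B cells were above all 8, by a log2 difference of 1.08 ± 0.27 (SE; quasi-likelihood adjusted p = 0.0142). The window from 16.45 to 16.50 Mb held 4.16% in B cells and 1.58% to 2.85% in the 3T3-L1 libraries, higher by a log2 difference of 0.84 ± 0.19 (SE; quasi-likelihood adjusted p = 0.0105). In the window from 16.35 to 16.40 Mb B cells held 3.58% and the 3T3-L1 libraries 0.833% to 2.84%, a log2 difference of 0.88 ± 0.21 (SE; quasi-likelihood adjusted p = 0.0105). Against the day 0 libraries alone the windows from 16.45 and 16.35 Mb differed by 0.79 and 0.53 on the log2 scale and did not pass, and with a block for replicate number that from 16.35 Mb differed by 0.77 (quasi-likelihood adjusted p = 0.0569). The leading window, from 16.55 to 16.60 Mb, which holds the bait, was 1.24 times as high in B cells as in the 3T3-L1 mean and did not pass.

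B cells also lay above all 8 3T3-L1 libraries in 4 windows farther above the bait, none of which passed. The window from 16.95 to 17.00 Mb held 2.73% in B cells and at most 1.79% in 3T3-L1 cells, a log2 difference of 0.86 (quasi-likelihood adjusted p = 0.0722). Those from 16.75, 16.80 and 16.90 Mb held 2.28%, 3.31% and 4.24% in B cells, against at most 2.24%, 2.90% and 3.99% in 3T3-L1 cells. Leads over the highest 3T3-L1 library were thus seen on both sides of the bait. That of the window from 16.75 Mb was lost when single sites with extreme ratios, described below, were left out.

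At the low end of the region the window from 15600001 to 15650000 bp held 0.665% in B cells (exact 95% interval 0.646% to 0.685%). The 3T3-L1 libraries held 1.87% and 1.74% on day 0, 1.39% and 1.61% on day 1, 1.63% and 1.53% on day 2, and 1.61% and 1.41% on day 6. B cells were below all 8 libraries, with a log2 difference of -1.26 ± 0.30 (SE; quasi-likelihood adjusted p = 0.0105). Its neighbour from 15.65 to 15.70 Mb, also passing but with a larger p and so outside the rule for naming windows, held 0.930% in B cells and 1.77% to 2.32% in 3T3-L1 cells.

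The window calls depended on how the spread was estimated. The test shares its estimate of spread over all windows of chromosome 12, and with the spread of the 40 windows estimated apart, an alternative added after the data were seen, only 3 windows passed. They were that from 15600001 bp and that from 15.65 Mb, lower, and that from 16.95 Mb, higher in B cells, with adjusted p = 0.048 for the first, while the windows from 16.60 and 16.65 Mb had adjusted p = 0.374 and 0.354. DESeq2 called 0 windows in the region, with 0 at an unadjusted p under 0.05, and its standard errors were 0.85 to 0.90 on the log2 scale for the 6 named windows. With TMM scaling 4 windows passed, 0 higher and 4 lower, and the window from 16.60 Mb then differed by -0.87 on the log2 scale. The directions of the 6 named windows were kept under DESeq2, TMM scaling, scaling to sites over 100 kb away, and without any 1 library.

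**Figure D3:**
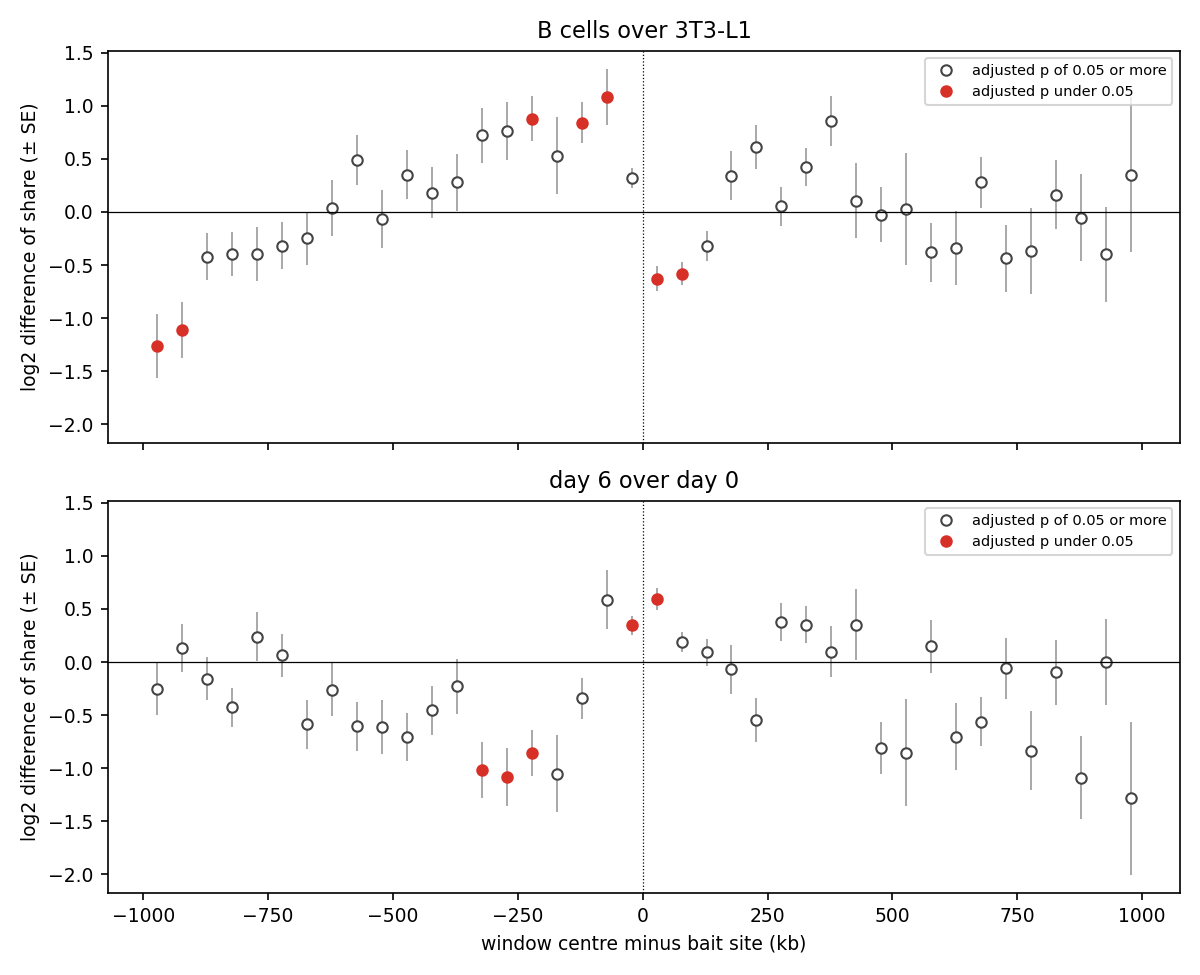
Log2 difference of each 50-kb window's share of the reads (± SE, edgeR) against the distance of the window centre from the bait site (kb), for B cells over 3T3-L1 cells above and for day 6 over day 0 below; filled red points have an adjusted p under 0.05 over the tested windows of chromosome 12. B cells are higher in a run of windows just below the bait and lower just above it, and day 6 is higher beside the bait and lower in 3 windows centred 222 to 322 kb below it.

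At the level of single sites the 5 strongest contacts of 3T3-L1 cells lay within 53.7 kb of the bait. The site at 16647158 to 16647163 bp, 50.05 kb above the bait, was the leading site of 3T3-L1 cells and held 1.65% of the reads in B cells, against 3.48% and 3.401% on day 0, 3.52% and 3.79% on day 1, 4.35% and 4.87% on day 2, and 6.23% and 4.59% on day 6 in 3T3-L1 cells. B cells were below all 8 libraries at this site, and both day 2 and both day 6 libraries were above both day 0 libraries. The site at 16585782 bp, 11.3 kb below the bait, held 3.22% in B cells and 2.99% ± 0.443 in 3T3-L1 cells (SD, n = 8), and was second in both lines. The third in both lines, at 16564217 bp and 32.9 kb below the bait, held 2.09% in B cells and 2.90% ± 0.549 in 3T3-L1 cells (SD, n = 8). The sites at 16637230 and 16650762 bp, 40.1 and 53.7 kb above the bait, held 1.27% and 0.796% in B cells, and 2.67% ± 0.925 and 2.40% ± 0.624 in 3T3-L1 cells (SD, n = 8). At 4 of these 5 leading sites, all but that at 16585782 bp, B cells lay below all 8 3T3-L1 libraries. The 5 sites were chosen for their high share in these same libraries, and that choice favours lower values in B cells. How often B cells lay below all 8 libraries at the other sites was not counted, so no conclusion is drawn from this count. The choice works the other way for sites ranked by their share in B cells, given next.

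In B cells the first rank went to the site at 16565919 bp, 31.2 kb below the bait, with 4.39% of the reads, against 1.23% to 2.28% in the 8 3T3-L1 libraries. Ranks 4 and 5 went to sites that were nearly empty in 3T3-L1 cells. The site at 16554433 bp, 42.7 kb below the bait, held 1.97% in B cells, from 12923 reads, against 0.00972% to 0.0435% in 3T3-L1 cells, from 105 to 201 reads per library. The site at 16611744 bp, 14.6 kb above the bait, held 1.77% in B cells, from 11618 reads. In 3T3-L1 cells its read counts were 130 and 3 on day 0, 276 and 3 on day 1, 29 and 6 on day 2, and 22 and 4 on day 6, so the libraries of a day differed widely at this site. The B cell share was 81.2 times the 3T3-L1 mean at the first of these sites and 267 times at the second. Against the highest 3T3-L1 library it was 45.3 and 78.6 times as high. Without day 1 replicate 1 the ratio to the 3T3-L1 mean at the second site was 407 in place of 267.

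A count of such sites was made after these values had been seen, and it is given as a description with no test. Among the 336 sites with a share of at least 0.1% in B cells or in the 3T3-L1 mean, 20 had a B cell share at least 10 times that of the highest 3T3-L1 library, and only 2 showed the reverse. The 20 sites were spread from 825 kb below to 658 kb above the bait and together held 8.07% of the reads in B cells, against 0.0497% in the 3T3-L1 mean. The 2 sites of the reverse kind lay at 16115685 and 16574726 bp. The site at 16574726 bp held 0.0198% in B cells, against 0.405% to 0.938% in 3T3-L1 cells. Without all 22 sites the low side held 53.7% of the reads in B cells and 43.3% to 48.9% in the 3T3-L1 libraries, and the windows from 16.45, 16.50 and 16.35 Mb were still 1.66, 2.05 and 1.81 times as high in B cells as in the 3T3-L1 mean. Those from 16.60 and 16.65 Mb were 0.500 and 0.632 times as high, and that from 15600001 bp 0.449 times. The window from 16.75 Mb no longer led, at 1.84% in B cells against 1.42% to 2.25% in the 3T3-L1 libraries. Nor did that from 16.55 Mb, at 15.1% against at most 15.3%. The windows from 16.80, 16.90 and 16.95 Mb still lay above all 8 3T3-L1 libraries. All 20 sites had reads in at least 1 3T3-L1 library, and 5 of them in all 8, but at some these were single reads. The site at 17199793 bp had 1 read in each of 2 3T3-L1 libraries, against 919 in B cells. That at 16167804 bp had 1 read in each of 6, against 822, while that at 16554433 bp had 105 to 201 reads per library. The labels give no mouse strain for either line, and these counts do not show whether each HindIII site is intact in both lines, so a difference in sequence and a difference in contact cannot be told apart at single sites.

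**Figure D4:**
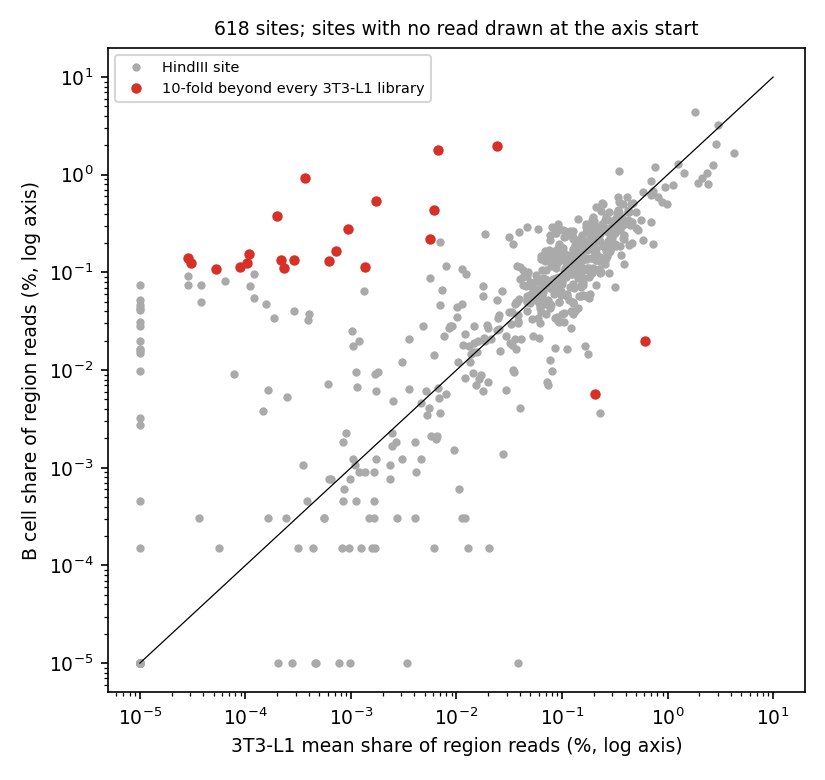
Share of the reads in B cells against the mean share over 8 3T3-L1 libraries for each of the 618 HindIII sites (%, both axes log; the line marks equal shares, and sites with no read are drawn at the axis start). The 20 red points above the line and the 2 below it are the sites whose B cell share lay at least 10 times beyond every 3T3-L1 library.

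Across windows B cells were less like the 3T3-L1 libraries, at the median, than these were like each other. The Spearman correlation over the 40 window shares was 0.647 to 0.868 between B cells and the 8 3T3-L1 libraries, with a median of 0.809. It was 0.740 to 0.964 between libraries of different days (24 pairs, median 0.888) and 0.834 to 0.969 between replicates of a day (4 pairs, median 0.938). Replicates of a day were not always the closest pair: day 1 replicate 1 had 0.937 with its replicate and 0.964 with day 2 replicate 1, and the day 6 libraries had 0.834 with each other, while day 6 replicate 1 had 0.906 with day 2 replicate 1. Over the 618 sites the medians were 0.868 for replicates and 0.862 for different days. There the replicate 1 libraries of days 0, 1 and 2 had 0.951 to 0.956 with each other. That is above the highest value between replicates of a day, 0.941. The replicate 2 libraries of these days had 0.834 to 0.863 with each other. The windows share site counts and distance from the bait, so these values are descriptive.

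Along adipogenesis the reads lay closer to the bait on days 2 and 6 than on days 0 and 1. Sites within 100 kb held 36.8% and 30.4% of the reads on day 0, 33.1% and 30.9% on day 1, 40.8% and 39.2% on day 2 and 43.3% and 43.8% on day 6. All 4 libraries of days 2 and 6 were above all 4 of days 0 and 1. An exact permutation test between the 4 days gave p = 0.0476, which was 0.467 after adjustment over 21 tests, and with 2 libraries against 2 the day 6 to day 0 difference of 9.96 percentage points could not reach a p below 0.33, which it gave. The distance within which 50% of the reads lay was 209 and 283 kb on day 0, 238 and 290 kb on day 1, 156 and 162 kb on day 2, and 148 and 144 kb on day 6. The libraries of days 0 and 1 and those of days 2 and 6 did not overlap in this distance either. The 10 leading sites of each library together held 24.6% and 19.7% of the reads on day 0, 20.4% and 20.1% on day 1, 28.6% and 26.4% on day 2, and 30.8% and 30.1% on day 6. The 4 libraries of days 2 and 6 were again above the other 4.

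Farther from the bait the share was lower on day 6 than on day 0. The shares of a library have a fixed sum, so the rise within 100 kb by itself lowers the shares elsewhere. The fall is therefore not a separate result. The share 500 kb to 1 Mb away was lower on day 6 than on day 0 by 5.21 percentage points on average, at 26.6% ± 0.669 on day 6 and 31.8% ± 2.68 on day 0 (SD, n = 2 each; exact permutation p = 0.33, the smallest possible). The low-side share was 44.3% ± 0.842 on day 6 and 48.5% ± 1.03 on day 0 (SD, n = 2 each; exact permutation p = 0.33). Between all 4 days the permutation p was 0.0762 for the far share and 0.0952 for the low side, each 0.467 after adjustment. Per distance, bins on the low side between 100 and 500 kb had 0.536 to 0.687 times the day 0 share on day 6, while those on the high side between 100 and 500 kb had 0.774 to 1.20 times. The day 6 libraries captured fewer sites and were shallower on average than those of the other days, as given above, and the part of this in the shares was not tested. Shares of captured sites in place of reads turned the low-side difference to 0.711 percentage points, on the measure described above as having little room to move.

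On day 6, 5 of the 40 windows passed edgeR's quasi-likelihood test against day 0 at an adjusted p under 0.05. Of these, 2 were higher and 3 lower. The background was 0.267% of the tested windows, 0.0891% higher and 0.178% lower. It includes the 40 windows, and among the 2205 outside the region 1 passed. The window from 16.60 to 16.65 Mb rose by a log2 difference of 0.59 ± 0.10 (SE; quasi-likelihood adjusted p = 2.76e-05), with 12.7% ± 1.10 on day 6 and 8.43% ± 0.897 on day 0 (SD, n = 2 each). Its values in each library, given above for the comparison with B cells, put both day 2 and both day 6 libraries above both day 0 and both day 1 libraries. The window from 16.55 to 16.60 Mb held 15.5% ± 0.455 on day 6 and 12.2% ± 2.28 on day 0 (SD, n = 2 each), a log2 difference of 0.35 ± 0.09 (SE; quasi-likelihood adjusted p = 0.0468). In it day 0 replicate 1, at 13.8%, was nearer to the day 6 libraries, at 15.2% and 15.8%, than to day 0 replicate 2, at 10.5%. Without day 0 replicate 2 the log2 difference was 0.17 and 0 windows of the region passed.

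The 3 lower windows formed 1 stretch from 16.25 to 16.40 Mb, with centres 222 to 322 kb below the bait. The window from 16.30 to 16.35 Mb held 1.30% and 1.53% on day 0, 1.42% and 1.66% on day 1, 1.10% and 0.884% on day 2, and 0.647% and 0.691% on day 6. Day 6 was below every other library, and against day 0 the log2 difference was -1.08 ± 0.28 (SE; quasi-likelihood adjusted p = 0.0468). The windows from 16.25 and 16.35 Mb had log2 differences of -1.02 ± 0.26 and -0.86 ± 0.21 (SE; quasi-likelihood adjusted p = 0.0477 and 0.0468). Both leaned on day 6 replicate 2, which held 0.353% and 0.833% of its reads there, while day 6 replicate 1 held 1.24% and 1.90%. Without that library their log2 differences were -0.38 each and only 1 window of the region passed. The next window, from 16.40 to 16.45 Mb, had 0.482 times its day 0 share on day 6 and did not pass.

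Over all 40 windows, 13 had a positive and 27 a negative log2 difference on day 6, with a median of -0.26, against a median of -1.90 over all tested windows. Both day 6 libraries were above both day 0 libraries in 6 windows and below both in 20, against 5.52% and 44.8% of all tested windows. Of those 20, 12 lay among the 20 windows of the low side. The number of windows that passed edgeR's test changed with the library left out, as given below. With 1 library left out the log2 difference was 0.49 to 0.71 for the window from 16.60 Mb and 0.17 to 0.55 for that from 16.55 Mb. It was -1.20 to -0.96 for the window from 16.30 Mb, -2.19 to -0.38 for that from 16.25 Mb and -1.57 to -0.38 for that from 16.35 Mb. The calls did not hold when the spread was estimated apart in the region, where 0 windows passed on day 6 and the adjusted p of the window from 16.60 Mb was 0.17, or with DESeq2, which called 0 windows, with 0 at an unadjusted p under 0.05. TMM scaling left 2 windows and scaling to sites over 100 kb from the bait 3 windows, all of them higher, and the 3 lower windows did not pass there.

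The same window beside the bait stood out on day 2. The window from 16.60 to 16.65 Mb was the only 1 of 40 to pass on day 2. The background of 0.0445% is this same window, as 0 of the 2205 tested windows outside the region passed. The window held 12.4% ± 1.07 on day 2 and 8.43% ± 0.897 on day 0 (SD, n = 2 each), a log2 difference of 0.56 ± 0.10 (SE; quasi-likelihood adjusted p = 1.84e-04). It did not pass without day 0 replicate 2 or without day 2 replicate 1, where the log2 difference was 0.45 and 0.47, with DESeq2, or with the spread estimated apart (adjusted p = 1), and 2 windows passed without day 0 replicate 1. Both day 2 libraries were above both day 0 libraries in 6 windows and below both in 14, against 10.1% and 24.7% of all tested windows. The lower window with the smallest p, not passing, was that from 17.20 to 17.25 Mb, with 0.604% ± 0.0440 on day 2 and 1.30% ± 0.0738 on day 0 (SD, n = 2 each). On day 1 edgeR called 0 windows, a background of 0%, with 3 of the 40 at an unadjusted p under 0.05, and DESeq2 called 0. Both day 1 libraries were above both day 0 libraries in 8 windows and below both in 8, against 7.57% and 25.3% of all tested windows. The day 1 windows of smallest p, neither passing, were that from 16.85 to 16.90 Mb, at 3.58% ± 0.640 on day 1 and 2.60% ± 0.106 on day 0, and that from 15.70 to 15.75 Mb, at 2.11% ± 0.371 on day 1 and 2.86% ± 0.193 on day 0 (SD, n = 2 each).

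A test of any difference among days 1, 2 and 6 against day 0 passed in 3 windows. They were those from 16.60, 16.55 and 16.30 Mb (quasi-likelihood adjusted p = 3.33e-11, 7.47e-05 and 0.0363). The background of 0.134% is these same 3 windows, as 0 of the 2205 tested windows outside the region passed. With the spread estimated apart their adjusted p was 0.096, 0.707 and 0.125, and without day 6 replicate 1 the count was 8. The 3 comparisons with day 0 share its 2 libraries.

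The Lpin1 region was also looked at from the baits at Pparg, the gene of the master nuclear receptor of adipocyte differentiation, and at Ifng, which encodes interferon gamma, on other chromosomes. A site counts as captured here when it has at least 1 read, and the captured share of the 618 sites is given as a multiple of the captured share on all chromosomes other than the bait's own. From the Pparg bait 4 sites were captured in B cells (0.647%, exact 95% interval 0.177% to 1.65%) and 1 to 36 in the 3T3-L1 libraries. The multiple was 0.668 in B cells, and 1.66 and 1.15 on day 0, 1.18 and 0.336 on day 1, 1.17 and 1.14 on day 2, and 0.865 and 1.15 on day 6. It scattered about 1, with a 3T3-L1 mean of 1.08 ± 0.373 (SD, n = 8), and day 1 replicate 2, the lowest, rests on 1 captured site. Exact permutation tests gave p = 0.33 for B cells against 3T3-L1 cells, 0.648 between the 4 days, and 0.33 for day 6 against day 0, where the means were 1.01 ± 0.201 on day 6 and 1.41 ± 0.360 on day 0 (SD, n = 2 each).

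From the Ifng bait the region was captured less than the other chromosomes in 9 of 9 libraries. The multiple was 0.552 in B cells, from 7 captured sites (1.13%, exact 95% interval 0.457% to 2.32%). It was 0.686 and 0.533 on day 0, 0.463 and 0.602 on day 1, 0.591 and 0.686 on day 2, and 0.152 and 0.393 on day 6, from 2 to 27 captured sites. The rest of chromosome 12 had a multiple of 1.01 ± 0.0622 from this bait in 3T3-L1 cells, against 0.513 ± 0.178 in the region (SD, n = 8), and the region lay below the rest of the chromosome in 9 of 9 libraries. From the Pparg bait the rest of the chromosome had 0.879 ± 0.0482 (SD, n = 8), and the region lay below it in 2 of 9 libraries. Of the 8 Pparg libraries of 3T3-L1 cells, 7 had a higher multiple than any of the 8 Ifng libraries. Both day 6 Ifng libraries lay below both day 0 libraries, with means of 0.273 ± 0.170 on day 6 and 0.609 ± 0.108 on day 0 (SD, n = 2 each; exact permutation p = 0.33, the smallest possible). Between the 4 days p was 0.0762 and between B cells and 3T3-L1 cells 0.889, and all these p-values were 0.467 or more after adjustment over the 21 tests.

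**Figure D5:**
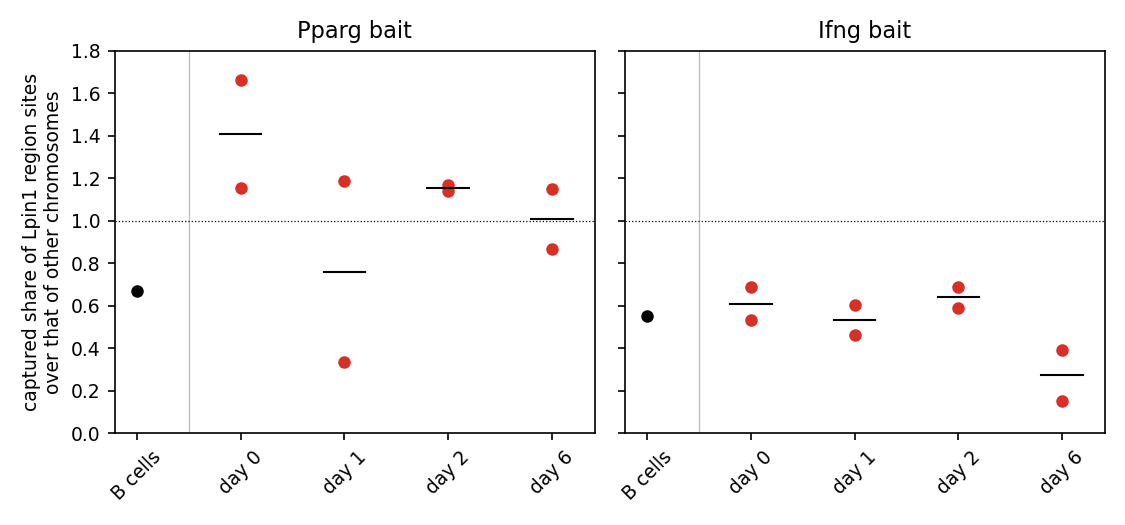
Captured share of the 618 sites as a multiple of the captured share on chromosomes other than the bait's own, for the Pparg and the Ifng bait, in B cells (black, 1 library) and in 3T3-L1 cells by day (red, 2 libraries each, bar at their mean). The dotted line marks equal capture at 1, around which the Pparg values scatter and below which all 9 Ifng values lie.

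Captures from these baits were few. Over all 9 libraries there were 128 from Pparg at 107 of the 618 sites and 131 from Ifng at 74 sites. From both baits 15 sites were captured, which is 14.0% of the Pparg sites and 20.3% of the Ifng sites. The bases for these shares are 74 of 618 sites for Ifng and 107 of 618 for Pparg, and the overlap was not tested. The windows of highest mean captured share in 3T3-L1 cells were those from 16.90, 16.60 and 16.85 Mb for Pparg, at 7.24%, 5.36% and 5.15% of their sites. For Ifng they were those from 16.65, 17.20 and 16.75 Mb, at 7.64%, 7.29% and 6.94%. All 6 lay above the bait site, and each rests on 3 to 11 captures summed over 8 libraries.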

How the data were processed

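The authors deposited 27 files of raw counts, the reads per HindIII site for 823355 sites, and no read filter or duplicate removal is given in the sources used here. Bowtie, without a version, and build mm9 are named per the submitters' processing notes. Reads of sites outside 10 kb of the bait were summed over windows of 50 kb of chromosome 12. They were fitted with edgeR 4.0.16 in R 4.3.3 (robust quasi-likelihood, 5 groups, filterByExpr, library size set to the reads on the 618 sites with no further scaling), with Benjamini-Hochberg adjustment over the 2245 tested windows and a threshold of 0.05. B cells were set against the mean of the 4 days and are assumed to vary like 3T3-L1 libraries. The fit was tested on simulated data, drawn with the spread of the region estimated apart, and its outcome is not used as support here. For shares, exact permutation tests, two-sided, were run by enumeration (NumPy 2.4.6), and intervals given are exact Clopper-Pearson intervals at 95%. Named windows are up to 3 per direction and contrast by smallest p, among those passing with libraries that do not overlap, or the smallest p where none passes. The 5 leading windows and sites per cell line, and the 3 leading windows of the other baits, are named too. Alternatives were DESeq2 1.42.0, TMM scaling, windows unfiltered, a block for replicate number, 100-kb windows, no top site per window, captured sites, a zone of 20 kb, captures of at least 2 reads, each library left out, and 3 added after the data were seen. Members and lists were chosen with earlier results of these data known.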

Additional observations from a re-analysis of the deposited data

Results flagged for a closer look

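Of 32 measures tested over the 8 3T3-L1 libraries of the Lpin1 bait, 3 had a library far from the others, where chance alone picks out about 1 in 20 groups. Day 6 replicate 2 had reads at 77.0% of the 618 sites, and the next lowest library, day 6 replicate 1, at 85.4%. The same library held 0.353% of its reads in the window from 16.25 to 16.30 Mb, against 1.14% in the next lowest. Day 6 replicate 1 held 1.53% in the window from 16.50 to 16.55 Mb, against 1.16% in the next highest. The 8 sites within 10 kb of the Lpin1 bait, which no comparison used, were captured by the other baits more often than the rest of the region. Over 9 libraries each, 11.1% of site and library pairs had a read from the Pparg bait, against 2.30% in the region, and 25.0% from the Ifng bait, against 2.36% (18 of 72 pairs). The Lpin1 bait site itself had 4 reads in 1 Pparg library and 10 reads in 3 Ifng libraries.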

How the results depend on the processing

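Counts of windows in the region that passed moved with the processing. On day 2 (1 window) the count was 0 with DESeq2, 100-kb windows, captured sites and the spread estimated apart, 2 with scaling to sites over 100 kb away, and 0 to 2 with 1 library left out. On day 6 (5 windows) it was 0 with DESeq2, captured sites and the spread estimated apart, 2 with TMM, 100-kb windows and no top site per window, 3 with a zone of 20 kb and with scaling to sites over 100 kb away, and 0 to 7 with 1 library left out. For any day (3 windows) it was 0 with DESeq2, captured sites and the spread estimated apart, 1 with TMM and 2 to 8 with 1 library left out. For B cells (7 windows) it was 0 with DESeq2 and captured sites, 2 with no top site per window, 3 with the spread estimated apart, and 4 with TMM, 100-kb windows and day 0 libraries alone, and 7 to 9 with 1 library left out. On day 1 it was 0 throughout. The deviations of replicate 1 from the mean of its day correlated weakly to moderately between days, at 0.0864 to 0.403, positive for every pair of days. A shared effect of replicate number was not tested. With the replicate block 0, 3, 6, 8 and 8 windows passed on day 1, day 2, day 6, any day and in B cells. The replicate block ended the call of the windows from 16.25 Mb on day 6 and 16.35 Mb in B cells. With captured sites the low-side differences had the other sign, at 0.525 (day 1), 0.594 (day 2), 0.711 (day 6) and -0.454 percentage points (B cells), as had the B cell difference 500 kb to 1 Mb away, at 0.908. With 1 library left out the day 1 differences ran from -1.95 to 0.704 (low side; 0.109 in the other reversed case), -4.83 to 1.61 (within 100 kb) and -3.42 to 0.365 (far), and the B cell Ifng multiple difference from -0.0132 to 0.0631. The day 1 log2 differences had the other sign at 16.85 Mb with captured sites, -0.0223, and at 15.70 Mb with TMM, 0.00892. The cause was not tested. Of 293 values of counts and shares under alternatives, 247 kept their direction or size. These include the day 1 counts that stayed at 0, and shares were compared by sign alone. For the named windows under alternatives, 209 values kept direction and call, 92 lost the call, 1 gained it and 2 had the other sign. The 2 libraries per day and 1 B cell library limit every test.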
